A study of Rattus norvegicus with 14 samples.

Results

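Doublecortin (Dcx), beta-III tubulin (Tubb3), stathmin-2 (Stmn2), growth-associated protein 43 (Gap43), Sox10 and S100b were followed through postnatal development in the epididymis of the rat, the coiled duct that matures and stores spermatozoa. These 6 genes, known as markers of young or growing neurons and of Schwann cells, were taken by symbol from the array annotation. All 6 were found, each with 1 transcript cluster, among 18166 genes with a cluster of their own. The tissue was pooled whole epididymis from Sprague-Dawley rats, with no treatment or genetic change named, and each pool was run on 1 RatGene 2.0 ST array. Day 7 has 3 pools, day 18 has 4, day 28 has 4 and day 60 has 3. The rats of day 7 and day 18 stayed with lactating mothers and the older ones fed freely, and how many animals were pooled is not stated. The labels speak of epididymal cells, and the series design of whole organs. Each value therefore mixes nerve with epithelium, muscle, vessels, connective tissue and fat, and fewer cells of a type cannot be told apart from less RNA per cell.

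The epididymis receives sympathetic, parasympathetic and sensory fibres, whose cell bodies lie mostly outside the organ. Axons hold little messenger RNA, whereas the Schwann cells that wrap them carry their nuclei and transcripts with them into the organ. Dcx, Tubb3 and Stmn2 encode proteins that bind, build or destabilise microtubules in growing neurites, and Gap43 encodes a membrane protein of growth cones. Sox10 is the transcription factor that sets and keeps the Schwann cell lineage, and S100b encodes a calcium-binding protein of glia that adipocytes and some immune cells also make.

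The arrays gave 1 log2 signal per cluster, so that a difference of 1 is a doubling. Array medians ran from 5.21 to 5.42, pools of the same age correlated at 0.989 to 0.995 over all genes, which are not independent replicates, and no 2 arrays were identical. Replicate 2 of day 28 had the highest median and stood farthest out on the third principal component, with a score of 25.2, against 14.2 to 15.9 in the other pools of its age. No call on the 6 genes ended or appeared without it. The epithelial markers were above background at every age in 6 of 6 cases. As a measure of background the 1185 olfactory receptor genes were used, most of which this organ has no known need of, and the 95th percentile of their mean levels was 5.03. Of the 6 genes 5 had a mean over the 14 arrays above that level, against 71.1% of all genes. S100b stood 2.39 above it, Stmn2 0.79, Gap43 0.78, Sox10 0.60 and Dcx 0.20, while Tubb3 lay below it with a mean of 4.38. Dcx passed through its day 7 level: it was above background in 5 of 14 arrays, with means of 4.20 at day 28 and 3.80 at day 60. At the 99th percentile (5.93) S100b alone remained above.

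The genomic sequence before the start of transcription is shown for Dcx, S100b and Tubb3, which are also the genes whose age means differed most. It was taken from RefSeq windows of the GRCr8 build, which hold an entry for only these 3 of the 6 genes. Each is the 250 bases before the start, 5′ to 3′ on the gene's own strand. Capitals mark the letters CANNTG, the E-box that basic helix-loop-helix factors can bind, or ACAANG, a core of sites for Sox factors, on either strand. The windows are chrX:112304162-112304411 on the minus strand for Dcx, chr20:12381082-12381331 on the minus strand for S100b and chr19:68365437-68365686 on the plus strand for Tubb3.
Dcx: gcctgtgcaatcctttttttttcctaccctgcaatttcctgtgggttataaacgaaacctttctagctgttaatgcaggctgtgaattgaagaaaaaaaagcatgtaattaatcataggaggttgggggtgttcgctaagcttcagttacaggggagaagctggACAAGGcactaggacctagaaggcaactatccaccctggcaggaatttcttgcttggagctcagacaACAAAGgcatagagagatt
S100b: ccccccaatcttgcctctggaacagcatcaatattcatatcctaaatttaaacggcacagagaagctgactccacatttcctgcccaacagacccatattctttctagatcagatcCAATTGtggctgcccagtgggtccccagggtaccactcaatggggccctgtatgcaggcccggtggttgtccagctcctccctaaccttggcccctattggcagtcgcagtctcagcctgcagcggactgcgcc
Tubb3: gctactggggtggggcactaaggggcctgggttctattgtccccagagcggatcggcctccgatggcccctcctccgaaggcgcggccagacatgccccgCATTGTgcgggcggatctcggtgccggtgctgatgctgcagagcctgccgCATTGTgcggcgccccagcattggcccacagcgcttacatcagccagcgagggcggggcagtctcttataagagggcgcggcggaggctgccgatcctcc
The Sox letters stood at 2 places in Dcx, 86 and 19 bases before the start, and at 2 places in Tubb3, at 150 and 100 bases, while the E-box letters stood once in S100b, at 134 bases. No 2 marked matches overlapped. Among 27457 RefSeq windows of this length, 1 per gene, 36.4% held the Sox letters and 65.2% the E-box letters, so that each is common. The 2 blocks of the RE1 element of neuronal genes were not found in the 3 windows on either strand. Of all windows 0.317% held the first block, TTCAGCACC, and 1.54% the other, GGACAGNGC. The base composition differed: G and C made up 44.0% of the Dcx window, 54.8% of the S100b window and 68.0% of the Tubb3 window, against a median of 52.0%.

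The 6 genes did not follow a common course. Dcx fell at the first 2 steps, S100b fell to day 18 and rose again to day 60, Sox10 fell at the first step, Stmn2 rose to day 28, Gap43 fell to day 60 and Tubb3 rose to day 60. All 6 passed the joint test over the ages, as did 60.4% of all genes. Of the 6, 0 were higher and 3 lower at day 18 than at day 7, where 38.1% of all genes were called, 17.4% higher and 20.7% lower. At day 28 against day 18 1 was higher and 1 lower, where 24.7% of all genes were called, 10.5% higher and 14.3% lower. At day 60 against day 28 2 were higher and 1 lower, where 25.0% were called, 13.8% higher and 11.2% lower. Over the whole span, day 60 against day 7, 1 was higher and 3 lower, beside 49.2% of all genes called, 21.7% higher and 27.6% lower. For day 28 against day 7 the counts were 1 higher and 3 lower (48.0% of all genes called, 20.5% higher and 27.4% lower), and for day 60 against day 18 they were 2 higher and 1 lower (41.1% called, 19.0% higher and 22.1% lower). The median difference of the 6 was -0.38 at the first step, 0.22 at the second, -0.19 at the third and -0.32 over the whole span, beside 0.012, -0.021, -0.021 and -0.026 over all genes. With 6 genes such shares are coarse.

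**Figure D1:**
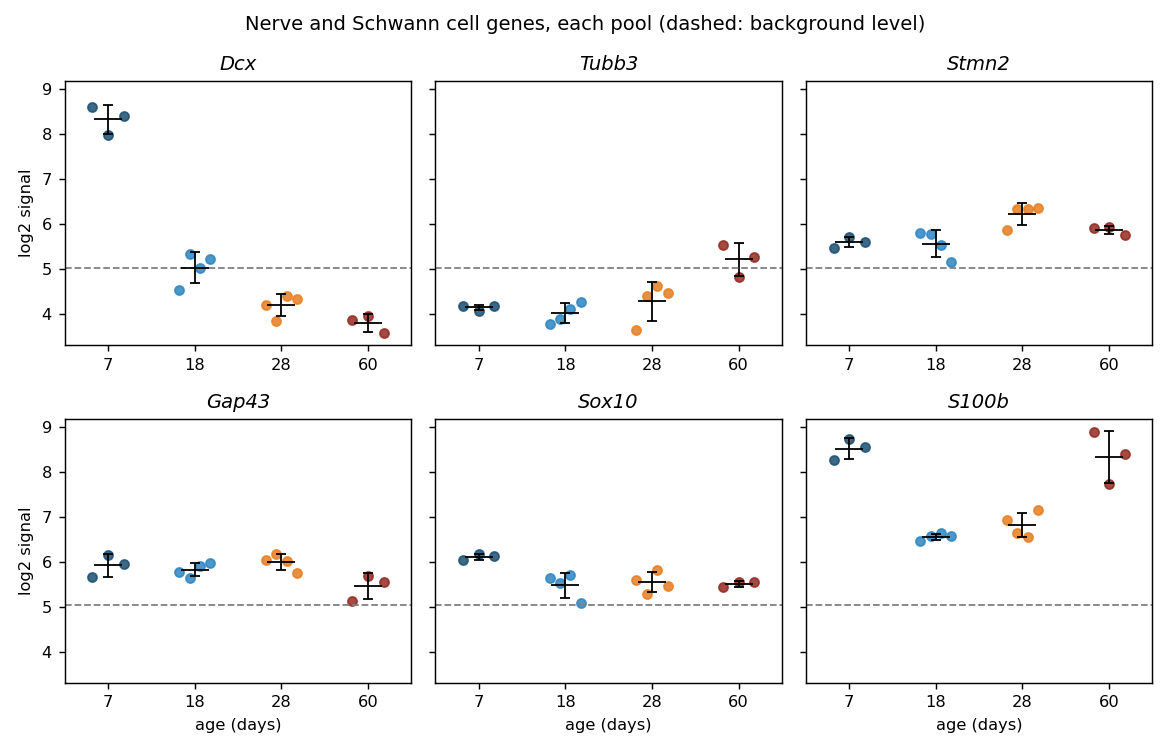
Log2 signal (vertical axis) of Dcx, Tubb3, Stmn2, Gap43, Sox10 and S100b in each pool (points) at 4 ages in days (horizontal axis), with the mean and SD in black and the background level of 5.03 dashed. Dcx stands near 8.3 at day 7 and falls below the line by day 28, S100b is high at day 7 and day 60 and lower between, Tubb3 crosses the line at day 60 in 2 pools, and the other genes stay between 5.08 and 6.36.

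Dcx encodes doublecortin, a microtubule-binding protein of migrating and newly formed neurons, and had by far the widest range of the 6. Its log2 signals were 8.60, 7.98 and 8.39 at day 7, then 4.54, 5.34, 5.02 and 5.23 at day 18. They were 4.20, 3.84, 4.41 and 4.34 at day 28, and 3.86, 3.95 and 3.58 at day 60. The day 7 pools stood well apart from every later pool, and no value at day 28 or day 60 reached the lowest of day 18. The mean fell by 3.29 ± 0.19 (log2 difference ± SE) at day 18 against day 7, a 9.79-fold difference (limma, adjusted p = 7.37e-09), which was the third largest among the called falls of that step. It fell by a further 0.84 ± 0.18 at day 28 against day 18 (adjusted p = 0.00337). Between day 60 and day 28 the difference of -0.40 ± 0.19 did not pass (adjusted p = 0.155, 95% interval -0.82 to 0.016), and the pools overlapped. In 2 of 4 pools at day 18 and in 0 of 7 pools thereafter the signal was above background, so how large these folds are is not well measured. The range of its 4 age means, 4.53, was wider than that of 99.4% of all genes.

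Markers of immature connective tissue fell over the same step as Dcx. All 7 measured members of that list were lower at day 18 than at day 7, among them Vcan, a large matrix proteoglycan (-2.71), and Dlk1, a gene of fetal and progenitor cells (-3.04). The summed signal of the list ran from 13.81 to 13.93 at day 18, against 14.55 to 14.64 at day 7 (log2 of the sum). At the same step 20.7% of all genes were lower and 17.4% higher. Of the smooth muscle markers 5 of 7 were lower and 0 higher, and 6 of 6 epithelial markers were higher. The part of these cells in the falls of Dcx, Sox10 and S100b was not tested.

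Tubb3 encodes the beta-tubulin isotype that neurons use from early in their differentiation. Its log2 signals were 4.18, 4.07 and 4.18 at day 7, 3.79, 3.89, 4.12 and 4.28 at day 18, and 3.64, 4.40, 4.63 and 4.46 at day 28. At day 60 they were 5.54, 4.83 and 5.27. The 3 younger ages overlapped and lay under the background level in all 11 pools, whereas each day 60 pool was above all of these and 2 of 3 were above background. The rise at day 60 against day 28 was 0.93 ± 0.21 (1.91-fold, adjusted p = 0.00466), and that against day 7 was 1.07 ± 0.22 (adjusted p = 0.000944). The earlier means lie in the background, so that these folds are not well measured either. The differences at the first and second steps were -0.13 ± 0.21 (adjusted p = 0.681) and 0.26 ± 0.19 (adjusted p = 0.364). The second passed without replicate 1 of day 28, which had the lowest value of all (0.48, adjusted p = 0.0363).

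None of the 4 other measured beta-tubulin genes rose with Tubb3. Between day 60 and day 28 Tubb6 fell by 0.74 ± 0.12 (adjusted p = 0.000446), and Tubb2a and Tubb5, named after their values were seen, fell as well (-0.38 ± 0.13 and -0.45 ± 0.063). Tubb2b, a tubulin of young neurons that is not limited to them, differed by -0.34 ± 0.22, which did not pass (adjusted p = 0.296). Tubulin genes resemble each other, and signal shared between them was not separated. Markers of haploid germ cells, which reach the duct with the first spermatozoa, were also called at this step. Of these markers 6 of 8 rose and 0 fell, beside 13.8% of all genes higher and 11.2% lower. Among them Smcp, of the sperm mitochondrial capsule, rose by 6.15 ± 0.16 and Odf1, of the outer dense fibres, by 4.41 ± 0.14, both from under background. The summed signal of that list ran from 10.69 to 11.16 at day 60, against 7.37 to 7.64 at day 28, and its part in the rise of Tubb3 was not tested.

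Stmn2 encodes a stathmin that destabilises microtubules in growing and regenerating axons. Its log2 signals were 5.48, 5.72 and 5.60 at day 7, 5.79, 5.78, 5.52 and 5.16 at day 18, 5.87, 6.33, 6.34 and 6.36 at day 28, and 5.92, 5.93 and 5.76 at day 60. All 14 values were above background, and those of day 28 lay above all of day 7 and day 18. The rise at day 28 against day 18 was 0.66 ± 0.14 (1.58-fold, adjusted p = 0.00299). The preceding step differed by -0.035 ± 0.15 (adjusted p = 0.885, 95% interval -0.36 to 0.29). At day 60 against day 28 the difference of -0.35 ± 0.15 did not pass (adjusted p = 0.106), but it did without replicate 1 of day 28 (-0.47, adjusted p = 0.0271). Markers of smooth muscle and endothelium rose at the same step as Stmn2, in 6 of 7 and 4 of 6 cases with 0 lower. Of all genes 10.5% were higher and 14.3% lower there, and the part of these cells was not tested. In the order of the Stmn2 levels, day 28, day 60, day 7 and day 18, no neighbouring pair of ages differed by the test.

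The ubiquitous relative Stmn1, a stathmin of dividing cells, took another course from Stmn2. It fell at each step, with differences of -0.65 ± 0.11, -0.71 ± 0.11 and -1.34 ± 0.11, and had means of 8.48 at day 60 and 11.19 at day 7. The neuronal relatives Stmn3 and Stmn4 had means of 4.17 to 4.41 and 4.09 to 4.63 over the 4 ages, all under the background level.

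Gap43 encodes a protein of growth cones and axon terminals that Schwann cells can also express. Its log2 signals were 5.66, 6.15 and 5.94 at day 7, 5.78, 5.63, 5.89 and 5.98 at day 18, 6.03, 6.18, 6.01 and 5.75 at day 28, and 5.12, 5.67 and 5.56 at day 60. The first 3 ages overlapped widely, and the day 60 pools lay below those of day 28. The mean fell by 0.54 ± 0.15 at day 60 against day 28 (1.46-fold, adjusted p = 0.0152), a call that ended without replicate 1 of day 60, the lowest pool (-0.38, adjusted p = 0.0877). The first and second steps differed by -0.096 ± 0.15 (adjusted p = 0.662) and 0.17 ± 0.14 (adjusted p = 0.406). Over the whole span the difference was -0.47 ± 0.16 (adjusted p = 0.0241) with overlapping pools. That call was lost when replicate 2 of day 7 (-0.35, adjusted p = 0.116), replicate 3 of day 7 (adjusted p = 0.0595) or replicate 1 of day 60 (-0.30, adjusted p = 0.133) was left out. It was also lost with the arrays centred on their medians (adjusted p = 0.0686), with the pools of these ages alone (0.0527) and over every cluster (0.052).

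Basp1 and Marcks, whose proteins share with that of Gap43 a place at the inner face of the membrane, are not limited to neurons. Basp1 averaged 9.83 ± 0.026 at day 18 and 8.23 ± 0.056 at day 7 (SD, 4 and 3 pools), a rise with adjusted p = 3.58e-10. It rose by a further 0.50 ± 0.065 at day 28 and fell by 0.60 ± 0.070 at day 60, the step at which Gap43 fell. Marcks, named after its values were seen, fell at the first step (-0.88 ± 0.073) and the third (-0.59 ± 0.073).

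**Figure D2:**
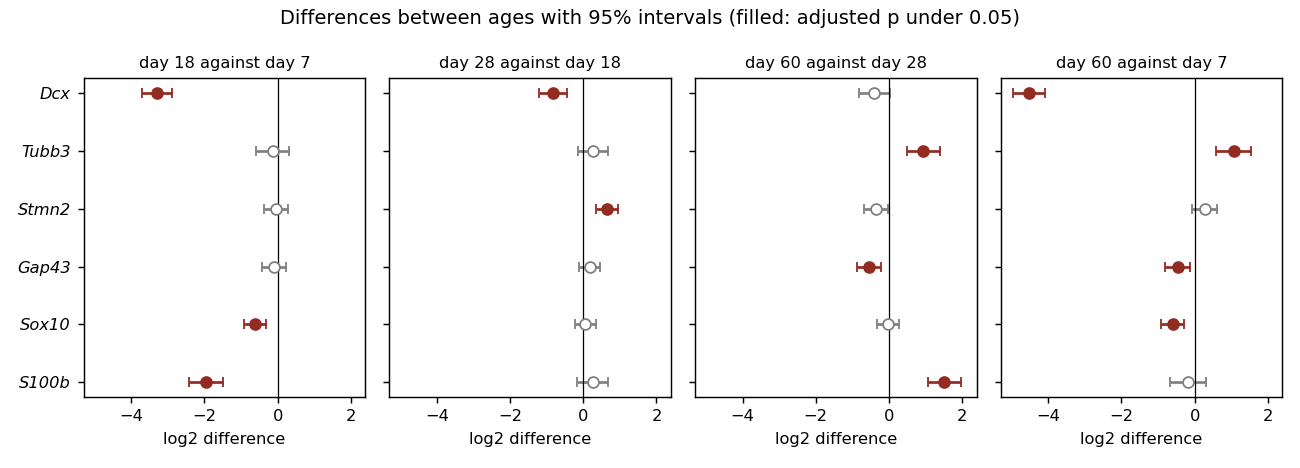
Log2 differences (horizontal axis) of the 6 genes for the 3 successive steps and for day 60 against day 7, as later minus earlier age, with 95% intervals from the fit over all genes, filled where the adjusted p was under 0.05. Dcx has the largest falls, S100b a fall at the first step and a rise at the third, and the intervals of the open points drawn span 0 except that of Stmn2 at the third step (-0.68 to -0.030).

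Sox10 was highest at day 7 and lower, at one level, from then on. Its log2 signals were 6.03, 6.17 and 6.12 at day 7, 5.63, 5.52, 5.69 and 5.08 at day 18, 5.60, 5.29, 5.82 and 5.46 at day 28, and 5.43, 5.54 and 5.54 at day 60. Every later pool was below every day 7 pool, and the 3 later ages overlapped. The mean fell by 0.63 ± 0.14 at day 18 against day 7 (1.55-fold, adjusted p = 0.00239). The later steps differed by 0.060 ± 0.13 (95% interval -0.22 to 0.34) and -0.034 ± 0.14 (-0.34 to 0.27), with adjusted p = 0.786 and 0.891. Between day 60 and day 7 the fall was 0.60 ± 0.15 (adjusted p = 0.00355). Sox10 also marks melanocytes. Of the 6 melanocyte markers 2 fell and 0 rose at the first step, the step at which Sox10 fell, beside 20.7% and 17.4% of all genes. Mitf, which many other cells express, fell by 0.86 ± 0.12. Pmel, of the pigment granule, fell by 0.32 ± 0.11 and was above background at every age. The other melanocyte markers, Dct, Tyr, Tyrp1 and Mlana, had means below background at every age. The summed signal of the 6 ran from 7.97 to 8.14 at day 18, against 8.47 to 8.76 at day 7. Mitf was the brightest of the 6 (means of 8.12 at day 7 and 7.26 at day 18) and weighs most in that sum. The part of melanocytes in the fall of Sox10 was not tested.

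S100b had the highest mean of the 6 and a course with a trough. Its log2 signals were 8.26, 8.72 and 8.55 at day 7, 6.46, 6.56, 6.63 and 6.56 at day 18, 6.92, 6.63, 6.56 and 7.15 at day 28, and 8.88, 7.72 and 8.38 at day 60. The pools of day 7 and day 60 overlapped and lay above all pools of the ages between. The mean fell by 1.96 ± 0.21 at day 18 against day 7 (3.88-fold, adjusted p = 3.67e-06) and rose by 1.51 ± 0.21 at day 60 against day 28 (2.85-fold, adjusted p = 0.000134). Between day 28 and day 18 the difference of 0.26 ± 0.20 did not pass (adjusted p = 0.38). Day 60 and day 7 differed by -0.18 ± 0.23 (adjusted p = 0.553, 95% interval -0.67 to 0.30). The SD over pools was 0.23 on day 7, 0.071 on day 18, 0.27 on day 28 and 0.58 on day 60, so the day 60 level is the least precise.

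Markers of adipocytes and of T and dendritic cells, which can also make S100b, changed over the same ages. Of the 10 adipocyte markers 5 were higher and 0 lower at day 18 than at day 7, the step at which S100b fell, and 4 were higher at day 28 than at day 18. At day 60 against day 28 3 of 10 were higher, among them Lep, the hormone leptin, by 1.66 ± 0.18, at the step at which S100b rose. The summed adipocyte signal ran from 9.50 to 9.72 on day 7, 9.61 to 10.67 on day 18, 10.34 to 11.18 on day 28 and 11.21 to 11.43 on day 60. Of the 6 measured markers of T and dendritic cells 4 were higher and 1 lower at day 18 than at day 7. At day 28 against day 18 0 were higher and 2 lower, and at day 60 against day 28 1 was higher and 0 lower. Of all genes 17.4% were higher and 20.7% lower at the first step, and 10.5% and 14.3% at the second. At the third 13.8% were higher and 11.2% lower, so that 1 of 6 is near the share of all genes. The part of either cell type in the changes of S100b was not tested.

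**Figure D3:**
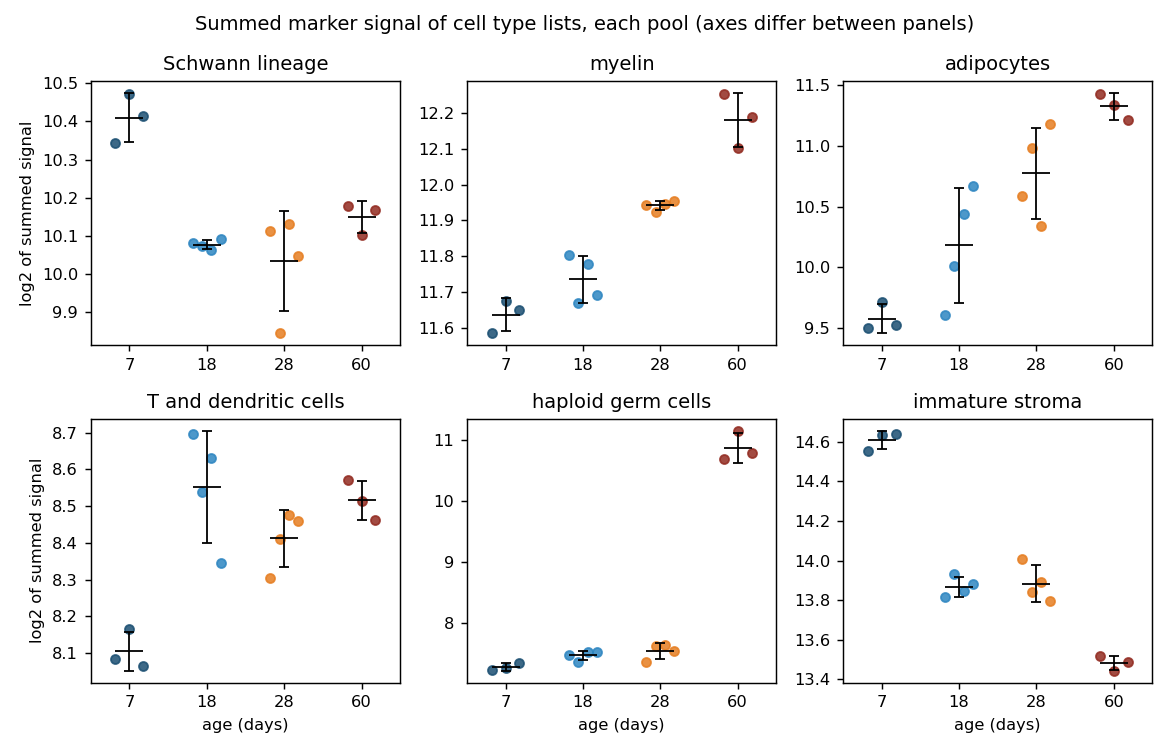
Log2 of the summed signal of 6 marker lists (vertical axis, own range in each panel) in each pool (points) by age in days, with mean and SD in black. The adipocyte sum climbs from 9.50 at the lowest day 7 pool to 11.43 at the highest day 60 pool, the germ cell sum is 10.69 or more at day 60 and 7.64 or less before, and the Schwann and immature stroma sums are highest at day 7. A sum follows its brightest genes. In the Schwann list the brightest at day 7 is Ngfr (mean 8.69, against 7.24 at day 18), which basal and stromal cells also carry.

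The counts of the lists that follow stand beside the shares of all genes called: 17.4% higher and 20.7% lower at the first step, 10.5% and 14.3% at the second, and 13.8% and 11.2% at the third. Where a mean lay under the background level of 5.03, as is said of a gene, the size of its difference is not well measured.

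Of the wider Schwann lineage list 12 of 15 genes were measured, and 7 had a mean above background. At day 18 against day 7 2 rose and 2 fell, with a median difference of -0.040. Ngfr, the p75 receptor for neurotrophins, which basal and stromal cells also carry, fell by 1.45 ± 0.11, and Gfra3, a receptor for artemin, fell by 0.54 ± 0.15. Pou3f1, a transcription factor of promyelinating Schwann cells that other tissues use, rose by 0.43 ± 0.12, and Erbb3, the neuregulin receptor of Schwann cells that epithelia share, rose by 0.36 ± 0.12. At day 28 against day 18 2 rose and 2 fell, and at day 60 against day 28 2 rose and 0 fell. Fabp7, a fatty acid-binding protein of immature glia, had means of 5.52 at day 60 and 3.66 at day 28, a rise of 1.86 ± 0.17 from under background, and Pou3f1 rose by 0.74 ± 0.12. Foxd3, of the neural crest, and the Schwann cell cadherin Cdh19, both named after their values were seen, passed at none of the 3 steps, and Cdh19 was below background throughout (3.71 to 4.19).

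Genes of myelin were measured in 17 of 18 cases. At the first step 5 rose and 3 fell, at the second 4 rose and 2 fell, and at the third 4 rose and 1 fell. The largest rises were those of Egr2, a transcription factor of myelination that is also an immediate early gene (2.06 ± 0.17 at day 18 against day 7), and Mal (1.83 ± 0.12), a membrane protein of myelin and of epithelia. Gldn, which gathers sodium channels at nodes of Ranvier, rose by 1.53 ± 0.15 at day 28 against day 18, where its day 18 mean was under background. Ncmap, a protein of noncompact myelin, rose by 1.79 ± 0.16 at day 60 against day 28. Mbp, myelin basic protein, was higher by 0.38 ± 0.10 at day 18 than at day 7 and fell by 0.32 ± 0.094 at day 28 against day 18. Drp2, of the Schwann cell dystroglycan complex, fell by 0.91 ± 0.11 at day 18 against day 7. Pmp22 and Prx were named after their values were seen. Pmp22, the brightest gene of the list at every age, had means of 11.06 on day 7, 10.70 on day 18, 10.60 on day 28 and 10.49 on day 60. The means of Prx were 5.47, 5.59, 5.50 and 5.38 at these ages. Median differences of this list were 0.18, 0.030 and 0.019 at the 3 steps.

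Axonal genes other than the 6 moved in both directions. Of 20, 6 rose and 8 fell at day 18 against day 7, 4 rose and 3 fell at day 28 against day 18, and 6 rose and 3 fell at day 60 against day 28. The adhesion molecule Ncam1 fell by 1.87 ± 0.12 and the ubiquitin hydrolase Uchl1, abundant in neurons but found in other cells, fell by 1.76 ± 0.10 at the first step. The neurofilament genes Nefm and Nefl, structural proteins of axons, were higher by 1.72 ± 0.16 and 1.04 ± 0.19 at the same step, with day 7 means under background (4.43 and 4.48). Nefm then averaged 6.15 ± 0.35 on day 18, 5.55 ± 0.22 on day 28 and 4.49 ± 0.076 on day 60 (SD, 4, 4 and 3 pools), and it fell by 1.06 ± 0.16 at the last step, to under background. Ina, alpha-internexin, rose by 1.23 ± 0.20 from under background (4.39 at day 28) and Rtn1, a neuronal reticulon, by 0.96 ± 0.11 at day 60 against day 28.

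Genes of transmitters and autonomic identity were largely dim: 9 of the 23 measured had a mean above background. Npy, a peptide of sympathetic fibres, had means of 8.49 ± 0.22 on day 7, 6.17 ± 0.070 on day 18, 5.37 ± 0.14 on day 28 and 5.94 ± 0.13 on day 60 (SD, 3, 4, 4 and 3 pools), and it fell by 2.31 ± 0.11 at the first step and rose by 0.57 ± 0.11 at the third. Th, tyrosine hydroxylase, the first enzyme of catecholamine synthesis, was under background at the first 2 ages. Its means were 4.70 ± 0.17 on day 7, 4.99 ± 0.20 on day 18, 5.94 ± 0.65 on day 28 and 7.98 ± 0.27 on day 60, with a rise of 2.04 ± 0.26 at the last step (adjusted p = 6.07e-05). Dbh, which makes noradrenaline, and the noradrenaline transporter Slc6a2, both named after their values were seen, passed at none of the 3 steps. Their age means ran from 4.85 to 5.20 and from 4.25 to 4.62. Penk, proenkephalin, rose by 2.89 ± 0.11 at day 60 against day 28. Its means were 9.22 on day 7, 8.09 on day 18, 8.18 on day 28 and 11.07 on day 60. The choline transporter Slc5a7 had a mean of 5.15 at day 7. It was under background at the later ages (4.22 at day 18, 4.18 at day 28 and 3.77 at day 60). Of the 23 genes 1 rose and 4 fell at the first step, 1 rose and 1 fell at the second, and 4 rose and 1 fell at the third.

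Synaptic vesicle genes were called in both directions: 1 of 17 rose and 4 fell at day 18 against day 7, 1 rose and 1 fell at day 28 against day 18, and 3 rose and 3 fell at day 60 against day 28. Snap25, of the membrane fusion machinery, had a trough as S100b did, with means of 6.32 on day 7, 5.23 on day 18, 5.50 on day 28 and 6.67 on day 60. It fell by 1.09 ± 0.21 at the first step and rose by 1.17 ± 0.21 at the third. Vamp2, its partner on vesicles in many cell types, fell by 0.70 ± 0.079 and rose by 0.65 ± 0.079 at the same steps. Syn2, a synapsin, rose by 1.22 ± 0.11 at the first step.

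**Figure D4:**
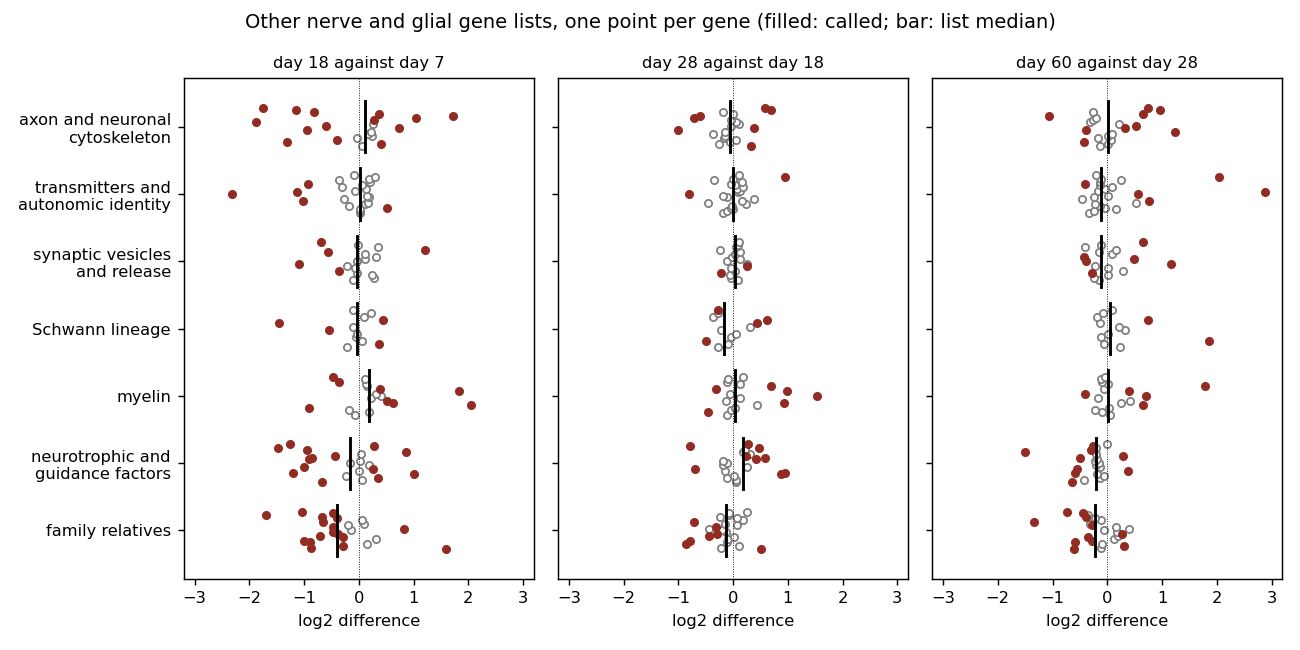
Log2 differences (horizontal axis) of the single genes of 7 fixed lists at the 3 steps, as later minus earlier age, filled where the adjusted p was under 0.05, with the list median as a black bar. The points of each nerve list spread to both sides of 0 with medians between -0.21 and 0.19, and the family relatives have medians of -0.39, -0.13 and -0.23.

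Neurotrophic and guidance genes, which direct fibres to their targets, were measured in 21 of 23 cases. At day 18 against day 7 5 rose and 9 fell, among them the repellents Sema3a (-1.47 ± 0.12) and Slit2 (-1.26 ± 0.093). At day 28 against day 18 7 rose and 2 fell, with Gfra2, the receptor for neurturin, up by 0.95 ± 0.083 and Gfra1, the receptor for GDNF, up by 0.88 ± 0.085. At day 60 against day 28 2 rose and 7 fell, and Ret, the kinase that these receptors share and that the epididymal epithelium may express, fell by 1.51 ± 0.16. Over the whole span 2 of the 21 were higher and 14 lower (21.7% and 27.6% of all genes), with a median difference of -0.46. Genes related by sequence or function to the 6 were counted in the same way: 15 of 23 were lower and 2 higher at day 18 than at day 7 (20.7% and 17.4% of all genes), and 18 were lower and 3 higher at day 60 than at day 7 (27.6% and 21.7%). Dclk1, a doublecortin-like kinase named after its values were seen, fell by 0.88 ± 0.10 at the first step and passed at neither of the others.

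The genes whose pattern was most like that of each of the 6 were sought by the root mean square difference over the 14 arrays, after each gene was centred on its own mean, among the genes with an age mean above background. For Dcx these were P4ha3, of collagen prolyl hydroxylation, at 0.34, Fos, an immediate early gene, at 0.39, and Igf2, a fetal growth factor, at 0.39. Set against a flat line Dcx itself differed by 1.69. For S100b (0.91 against a flat line) they were Il33, an alarmin cytokine, at 0.37, LOC100362384 at 0.38 and Aldh8a1, an aldehyde dehydrogenase, at 0.39. For Tubb3 (0.52) they were Cyp2j10 at 0.22, Rnasek at 0.24 and Slc12a8 at 0.24. The remaining 3 genes varied by 0.33 or less from a flat line, so a small distance says less for them. The nearest genes were Nrg2, a neuregulin, at 0.17 and then Mir138-2 and Kif7 at 0.18 each for Stmn2. For Gap43 they were Lingo3 and Nicol1 at 0.14 each and Mos at 0.16, and for Sox10 Flt4, a receptor of lymphatic endothelium, at 0.11, and Pcbp4 and Supt7l at 0.12 each.

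**Figure D5:**
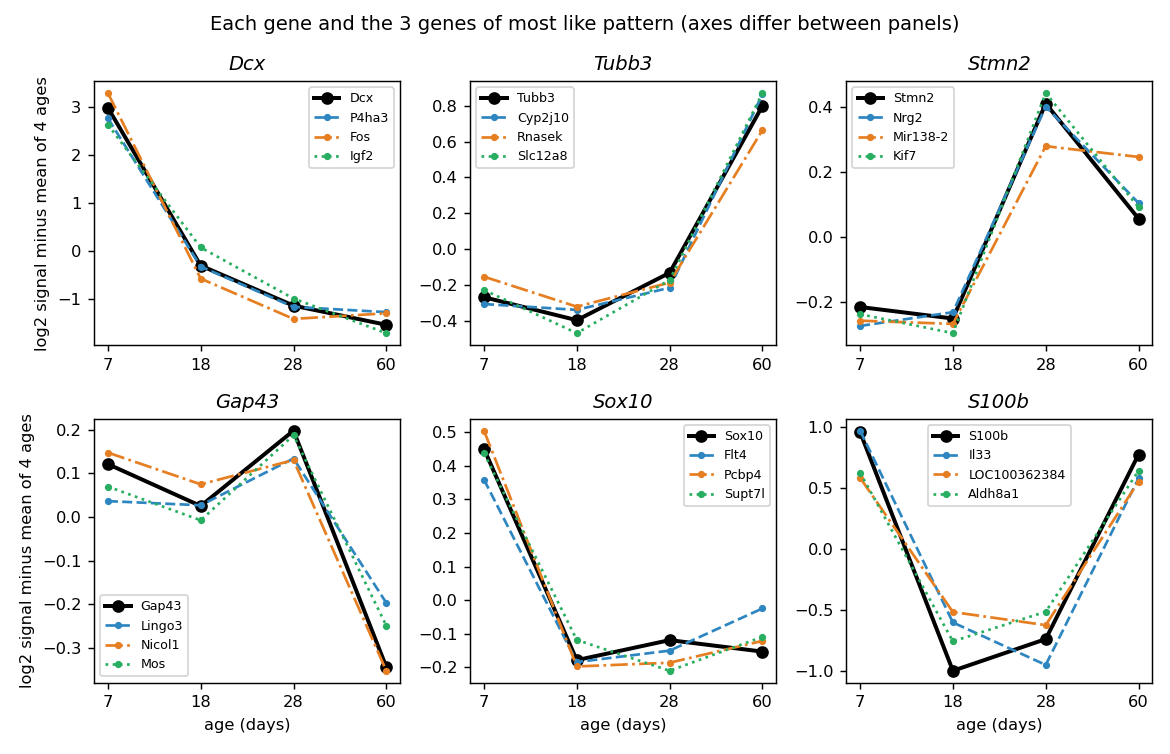
Mean log2 signal at each age minus the mean of the 4 ages (vertical axis, own range in each panel) by age in days, for each of the 6 genes (black) and the 3 genes of most like pattern (coloured). The lines of Dcx are highest at day 7, those of S100b dip at day 18 and day 28, and those of Gap43 and Sox10 span under 1 log2 unit in all.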

How the data were processed

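RNA from 14 pools of rat epididymis was hybridised to 1 array each. The deposited values are log2 signals that the authors made with RMA and the Transcriptome Analysis Console, per the submitters' processing notes; versions, settings and the genome build are not given in the sources used here. Symbols came from the platform annotation: 18511 of 36685 clusters had 1 symbol, 575 several and 17599 none, and 18394 of the first matched a RefSeq gene. The cluster with the highest mean stood for a gene, which gave 18166 genes, none removed for low signal. A linear model (limma 3.58.1, R 4.3.3; lmFit and eBayes) gave each age a mean over the 14 arrays; two-sided tests of all 6 pairs of ages and an F test were adjusted by Benjamini-Hochberg over all genes, with a threshold of 0.05. Errors of levels are SDs over pools, errors of differences SEs of the fit. The number of arrays limits the precision. Nothing in the labels says that pools came from separate litters, so p measures the spread between pools. The labels name no batch. The script was tested on simulated data. The genes and lists were chosen with earlier results of these data known. Named list genes are the 2 largest called rises and falls of a list at a step, unless said otherwise, beside genes named for dim or flat levels (Stmn3, Stmn4, melanocyte markers). A gene named for 1 step is in places given at other steps too, where it need not be among the largest (as Mbp, Npy, Basp1 and Stmn1). Listed genes that were not measured are not reported here.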

Additional observations from a re-analysis of the deposited data

Results flagged for a closer look

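In 1 of the 12 sets of 4 pools examined, 6 genes at day 18 and day 28, a pool stood apart by Dixon's test, which flags about 1 in 20 sets by chance. Replicate 1 of day 28 had a Stmn2 signal of 5.87, against 6.33 for the nearest of the other pools of that age, a gap of 0.947 of the whole range. Tubb3 was also lowest in this pool (3.64 against 4.40 for the next), with a gap of 0.772 of the range, under the critical value for sets of 4.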

How the results depend on the processing

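The count of the 6 genes called stayed at 3, 2 and 3 for the 3 successive steps under quantile normalization, median centring, an intensity trend with robust fitting, only the pools compared, array weights, averaged clusters, every cluster and the replicate block. Over the whole span it was 4, or 3 with median centring and with every cluster. With genes under the median level removed S100b alone was left, so that 1, 0, 1 and 0 were called at the 3 steps and over the whole span. Above background were 5 genes, 1 at the 99th percentile, and 4 without any one of the day 7 pools. Without single pools the counts ran from 3 to 3, 2 to 3, 2 to 4 and 3 to 4. Differences near 0 changed sign: Stmn2 at the first step was 0.0039 with median centring and 0.0095 with the replicate block, and Sox10 at the third was 0.0015 with quantile normalization. Without single pools Stmn2 at the first step ran from -0.11 to 0.098, Gap43 from -0.23 to 0.023, Sox10 at the second from -0.075 to 0.14 and at the third from -0.12 to 0.058, and S100b over the whole span from -0.46 to 0.12. The cause was not tested, and none of these was called. With the pools of these ages alone the Stmn2 difference over the whole span, 0.27, passed (adjusted p = 0.047). The labels do not say whether the replicate numbers pair the pools. Same-numbered pools of different ages correlated in their deviations at -0.14 to 0.046 (19 pairs, none over 0.1). With 3 or 4 pools per age this gives no sign of pairing but cannot exclude it. The replicate block gave 6492, 4201, 3928 and 8750 genes called, against 6929, 4491, 4550 and 8946. Signals near or under background, such as Tubb3 before day 60, Dcx from day 18 and the dim list genes, limit the sizes of folds.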
